A study of Homo sapiens with 24 samples.

Results

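The genes described here are 9 target genes of HSF1, the transcription factor of the heat shock response, together with ZFAND2A: HSPA1A, HSPA1B, DNAJB1, HSPH1, HSPB1, HSPA8, HSP90AA1, BAG3, HSPE1 and ZFAND2A, 10 of the 58735 genes of the count table. The rows were taken by gene name, and each name belonged to 1 gene identifier. All 10 genes passed the filter on low counts in both cell lines. ZFAND2A was included because the study listed it among the genes whose rise under MPS1 inhibition was smaller without cGAS, so its values are given throughout as a description, with no test. The other genes are known targets of HSF1, and all 10 were chosen with earlier results of these data known.

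OE33 and SK-GT-4 are established lines of esophageal adenocarcinoma (EAC). In each line, Cas9 control cells, which the labels give as cGAS WT, and cGAS knockout (cGAS KO) cells were treated for 48 hours with DMSO, the solvent, or with 500 nM reversine, an inhibitor of the mitotic kinase MPS1 (MPS1i) that makes chromosomes missegregate and micronuclei form. The knockouts were made with CRISPR-Cas9, so all groups carried Cas9, and poly(A) RNA was sequenced from 3 libraries per group, replicates 1 to 3, each from 1 of 3 batches, giving 24 libraries. The labels name no clone, so the difference between clones and the loss of cGAS cannot be told apart, and p-values measure the spread between these libraries.

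HSF1 is held inactive by chaperones and, when unfolded proteins occupy them, forms trimers that bind repeats of the unit GAA in alternating orientation, the heat shock element. Its targets encode chaperones and their partners, which refold proteins or pass them to the proteasome or to autophagy, and cancer cells commonly rely on this system. HSPA1A and HSPA1B encode the inducible HSP70, HSPA8 the constitutive HSC70 and HSP90AA1 the inducible HSP90. DNAJB1 (an HSP40) delivers substrates to HSP70, HSPH1 (HSP110) and BAG3 release its nucleotide, and BAG3 also routes substrates to autophagy. HSPB1 (HSP27) is a small heat shock protein that holds unfolded proteins, HSPE1 is the co-chaperonin of mitochondria, and ZFAND2A (AIRAP) is an arsenite-inducible zinc finger protein that binds the proteasome.

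The count table places ZFAND2A at chr7:1152071-1160759 on the minus strand and HSPB1 at chr7:76302544-76304295 on the plus strand of GRCh38. HSPA1A (chr6:31815464-31817946) and HSPA1B (chr6:31827735-31830255) are neighbours on the plus strand. Their transcripts are near-identical copies: 69.6% of the 150-base windows of the HSPA1A transcript, and 66.1% of those of HSPA1B, were found unchanged in the other in the GENCODE v44 annotation. How reads that match both were counted is not given in the sources used here, so the split between these genes is uncertain, and their sum is given where it matters. DNAJB1 overlaps TECR over 12686 bases on the opposite strand, HSPE1 overlaps HSPD1 over 3464 bases, and ZFAND2A overlaps the antisense gene AC091729.3 over 386 bases. HSPD1, on the opposite strand, had 1125% of the count of HSPE1, TECR had 58.1% of that of DNAJB1 and AC091729.3 had 24.5% of that of ZFAND2A, and without a stated strand setting reads of these overlaps cannot be told apart. All 10 are protein-coding genes, and reads over whole gene models were counted.

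RefSeq promoter windows (GRCh38.p14, 250 bases before to 50 after a start site) were found for all 10 genes, 13 windows in all. GAANNTTC or TTCNNGAA, 2 adjoining units of the heat shock element searched on both strands, occurred in 8 windows of 7 genes, and in 13.5% of all 35116 windows. The longer GAANNTTCNNGAA or TTCNNGAANNTTC, which contains the shorter motif, occurred in 0.490% of all windows and in windows of HSPA8 and HSP90AA1. No match of the shorter motif lay in the windows of HSPH1, BAG3 and HSPE1. The 250 bases before the start are shown for both genes with the longer motif, for the pair of HSP70 copies and for ZFAND2A, with the matched GAA and TTC units in capitals.
HSPA8, chr11:123062137-123062386, minus strand: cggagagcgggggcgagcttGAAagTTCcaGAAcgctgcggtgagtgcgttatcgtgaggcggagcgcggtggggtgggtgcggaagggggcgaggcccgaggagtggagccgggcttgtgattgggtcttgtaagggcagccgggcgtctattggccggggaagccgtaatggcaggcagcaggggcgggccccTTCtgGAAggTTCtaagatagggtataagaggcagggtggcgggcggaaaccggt
HSP90AA1, chr14:102087045-102087294, minus strand: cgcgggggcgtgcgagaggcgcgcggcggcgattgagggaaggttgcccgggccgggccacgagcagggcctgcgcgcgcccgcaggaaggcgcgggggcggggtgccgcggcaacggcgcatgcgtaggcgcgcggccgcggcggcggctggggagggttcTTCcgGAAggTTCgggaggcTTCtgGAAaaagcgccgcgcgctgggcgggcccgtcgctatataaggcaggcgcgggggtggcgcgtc
HSPA1A, chr6:31815293-31815542, plus strand: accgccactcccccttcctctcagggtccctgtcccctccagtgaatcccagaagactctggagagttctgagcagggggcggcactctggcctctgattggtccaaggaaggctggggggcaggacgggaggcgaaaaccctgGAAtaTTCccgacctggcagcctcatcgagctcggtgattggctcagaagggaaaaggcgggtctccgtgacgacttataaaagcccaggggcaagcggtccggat
HSPA1B, chr6:31827488-31827737, plus strand: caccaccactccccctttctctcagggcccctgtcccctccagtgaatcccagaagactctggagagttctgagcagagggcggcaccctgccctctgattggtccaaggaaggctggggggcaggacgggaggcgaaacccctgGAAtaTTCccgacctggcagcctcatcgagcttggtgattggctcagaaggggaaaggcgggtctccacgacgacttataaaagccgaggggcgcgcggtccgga
ZFAND2A, chr7:1160197-1160446, minus strand: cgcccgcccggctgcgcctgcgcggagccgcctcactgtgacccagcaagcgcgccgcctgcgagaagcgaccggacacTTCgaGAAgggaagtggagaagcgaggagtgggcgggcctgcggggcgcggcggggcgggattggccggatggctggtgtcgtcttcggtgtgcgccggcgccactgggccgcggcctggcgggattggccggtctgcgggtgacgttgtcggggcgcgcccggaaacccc
The 4 matches of HSPA8 began between 230 and 50 bases before the start, and the 3 of HSP90AA1 between 88 and 68. HSPA1A and HSPA1B each had 1 match, 106 and 105 bases before the start, in windows identical at 277 of 299 aligned bases. The single match of ZFAND2A began 171 bases before the start.

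Libraries held between 15561268 and 25284177 counts. Epithelial markers summed to between 16301 and 22543 CPM (counts scaled by library total and TMM factor) in OE33 and between 3678 and 19356 CPM in SK-GT-4. Markers of leukocytes, fibroblasts and endothelium, 8 genes, summed to at most 7.36 CPM in OE33 and 75.4 CPM in SK-GT-4, of which COL1A1 reached 71.6 CPM. CGAS, the targeted gene, ranged from 28.9 to 41.6 CPM over the OE33 Cas9 libraries. Of the 6 OE33 cGAS KO libraries, 5 had 2.31 to 2.82 CPM of CGAS, while replicate 2 of the DMSO group had 15.6 CPM. The SK-GT-4 Cas9 libraries had 14.7 to 26.1 CPM and the SK-GT-4 knockouts 2.22 to 6.09 CPM. SK-GT-4 Cas9 MPS1i replicate 2 and replicate 1 of the SK-GT-4 cGAS KO DMSO group stood apart: across 9151 genes their deviations from the mean of their genotype had Spearman correlations with gene length of -0.478 and -0.461, against -0.163 to 0.496 in the other 10 SK-GT-4 libraries. In them genes of up to 3340 bases lay 0.42 and 0.64 above that mean on the log2 scale (median). HSPB1 (1634 bases), HSPE1 (1977), ZFAND2A (2281), HSPA1A (2483), HSPA1B (2521) and BAG3 (2747) are of this length, and results that rest on these libraries are given with and without them. In OE33 the correlation with gene length ranged from -0.413, in cGAS KO DMSO replicate 1, to 0.312. Genes of up to 3340 bases lay 0.23 above the mean in that OE33 library (median). The part of RNA quality or length in the results of either line was not tested.

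Per kilobase of gene length, the constitutive and the HSP90 genes led in both lines. In OE33 the mean level over 12 libraries was 477 CPM per kb for HSPA8, 304 for HSP90AA1, 230 for HSPB1, 95.7 for DNAJB1, 55.6 for HSPA1A, 39.7 for BAG3, 38.3 for HSPA1B, 36.7 for HSPE1, 18.4 for HSPH1 and 5.16 for ZFAND2A. BAG3, HSPA1B and HSPE1 were neighbours whose ranges over libraries overlapped. In SK-GT-4 HSPA8 (503 CPM per kb) and HSP90AA1 (415) also led, while HSPB1 had 145, DNAJB1 103, HSPE1 52.1, HSPA1A 24.7, BAG3 23.8, HSPH1 14.1, HSPA1B 10.5 and ZFAND2A 10.04. HSPA8 and HSP90AA1 overlapped in range in both lines, as did HSPA1B and ZFAND2A in SK-GT-4. ZFAND2A had the lowest mean over the 12 libraries of each line, but the order turned with genotype in SK-GT-4. In SK-GT-4 cGAS KO cells with DMSO it had 12.6 CPM per kb, above HSPH1 (12.3) and HSPA1B (8.19), and with MPS1i it had 8.79 against 8.21 for HSPA1B.

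**Figure D1:**
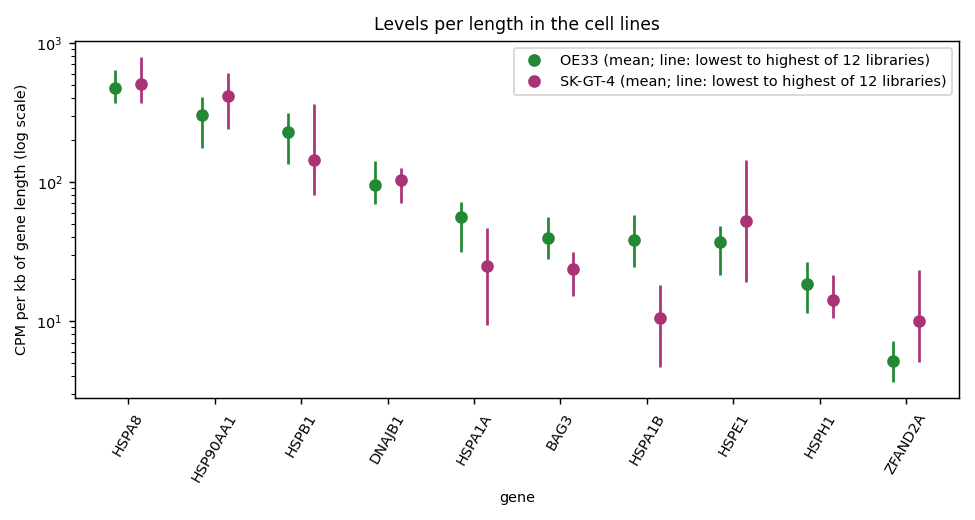
Mean level of each of the 10 genes in CPM per kilobase of gene length (log axis) in OE33 and SK-GT-4, with lines from the lowest to the highest of 12 libraries. By the mean of 12 libraries HSPA8 lies highest and ZFAND2A lowest in both lines, although in SK-GT-4 cGAS KO cells alone HSPA1B was below ZFAND2A, and HSPA1B is 38.3 in OE33 and 10.5 in SK-GT-4.

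MPS1i was used in the study to induce chromosomal instability and to find the genes whose response needs cGAS. None of the 9 tested genes was called in any treatment comparison, by edgeR's quasi-likelihood test at an adjusted p of at most 0.01. In bulk RNA, fewer cells with a transcript and less of it per cell cannot be told apart. In OE33 Cas9 cells, 0.0049% of 20426 genes were called (1 gene) and 6.95% had an unadjusted p under 0.05. Of the 9 genes, 0 had an unadjusted p under 0.05 with edgeR and 0 with DESeq2, and the smallest adjusted p was 0.72. With a block per genotype and batch in edgeR, 2 of the 9 had such a p (smallest adjusted p 0.18), where 0.455% of all genes were called. Without a filter on low counts 1 had (smallest adjusted p 0.77), where 0.343% were called. The median log2 difference over all 10 was -0.10, against 0.01 over all genes. BAG3 had the lowest value, -0.28 (SE 0.13), lower under MPS1i in 3 of 3 batches.

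The inducible HSP70 genes illustrate how closely OE33 libraries of a batch matched. HSPA1A had 152, 178 and 93.2 CPM in OE33 Cas9 DMSO replicates 1 to 3. Under MPS1i the same cells had 169, 176 and 91.6 CPM. Batch 3 was lowest in both, and the difference was 0.02 (SE 0.11), so differences between batches were larger than those between treatments. HSPA1B had 89.6, 145 and 69.3 CPM with DMSO and 92.7, 136 and 66.3 CPM with MPS1i, a difference of -0.06 (SE 0.11). In both genes all MPS1i values lay within or next to the DMSO range.

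In OE33 cGAS KO cells, 0 of 9 genes were called, where 0% of all genes were called and 6.95% had an unadjusted p under 0.05. DNAJB1 (-0.31, SE 0.13) and HSPH1 (-0.29, SE 0.14) had an unadjusted p under 0.05 with edgeR, at adjusted p of 0.68 and 0.72, and 1 of 9 did with DESeq2. DNAJB1 had 313, 517 and 277 CPM with DMSO and 293, 331 and 255 CPM with MPS1i, lower in every batch while the groups overlapped. The high DMSO value was replicate 2, the library with 15.6 CPM of CGAS. Without batch 2 the difference of DNAJB1 was -0.13, and without that library the difference of HSPH1 was -0.12. In both of these fits, and without the batch block, 0 of the 9 genes had an unadjusted p under 0.05. Other settings of edgeR gave as many or more: 3 of the 9 had such a p with a block per genotype and batch, and 2 had without a filter on low counts. The smallest adjusted p was 0.14 and 0.45 in these settings, where 0.494% and 0.543% of all genes were called. The difference between genotypes in the treatment effect was called in 0% of genes in OE33, with an unadjusted p under 0.05 in 1.88%. None of the 9 genes was called or had an unadjusted p under 0.05 with edgeR, and 0 had with DESeq2.

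In SK-GT-4 Cas9 cells, 0 of 9 genes were called, against 0% of 22782 genes, and 2.48% had an unadjusted p under 0.05. None of the 9 had such a p with edgeR and 1 had with DESeq2. With a block per genotype and batch in edgeR, 1 had (smallest adjusted p 0.88), where 0% of all genes were called. HSPA1A had 35.1, 62.8 and 87.3 CPM in DMSO replicates 1 to 3 and 44.4, 116 and 111 CPM under MPS1i. It was higher under MPS1i in 3 of 3 batches, by 0.53 (SE 0.25, adjusted p 0.98), and the groups overlapped. Without both libraries that stand apart, the difference of HSPA1A was 0.42 (unadjusted p 0.016, adjusted p 0.87 by edgeR). HSPE1 had 124, 63.8 and 97.5 CPM with DMSO and 95.4, 208 and 88.1 CPM with MPS1i. Its difference of 0.59 (SE 0.55) came from replicate 2, which is among the libraries that stand apart, and was -0.24 without both of them.

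In the knockout cells of SK-GT-4, 0 of 9 genes were called, 0% of all genes were, and 1.39% had an unadjusted p under 0.05, with 0 of the 9 under edgeR and 0 under DESeq2. HSPE1 (-0.91, SE 0.55) and HSPB1 (-0.62, SE 0.34) had the lowest values. HSPE1 had 283, 37.6 and 68.1 CPM with DMSO and 77.3, 44.1 and 50.4 CPM with MPS1i. The highest value was replicate 1 with DMSO, the other library that stands apart. Without both libraries the differences were -0.07 for HSPE1 and -0.30 for HSPB1.

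The difference between genotypes in the treatment effect was called in 0% of genes in SK-GT-4, with an unadjusted p under 0.05 in 2.41%. HSPB1, which was 1.11 (SE 0.47) on the log2 scale, had an unadjusted p of 0.039 and an adjusted p of 0.82 with edgeR, and 2 of the 9 had an unadjusted p under 0.05 with DESeq2. HSPB1 had 205, 144 and 131 CPM in Cas9 DMSO replicates 1 to 3 and 211, 336 and 133 CPM in Cas9 MPS1i. In cGAS KO it had 593, 271 and 194 CPM with DMSO and 231, 200 and 193 CPM with MPS1i. Both high values, 336 and 593 CPM, were in the libraries that stand apart, and replicate 3 differed little between treatments in either genotype. Without both libraries the difference was 0.38, with an unadjusted p of 0.13. HSPE1 had a difference of 1.504 (SE 0.77), which was -0.18 without both libraries.

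The effect of MPS1i in Cas9 cells was compared between the lines over all 24 libraries. This difference was called in 0% of 25181 genes and had an unadjusted p under 0.05 in 1.73%. None of the 9 genes was called or reached that p, with edgeR or with DESeq2. The largest difference among the 9 was 0.52 (SE 0.59) for HSPE1, with SK-GT-4 higher, and -0.30 without both libraries. HSPA1A had 0.49 (SE 0.28), and 0.41 without them.

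**Figure D2:**
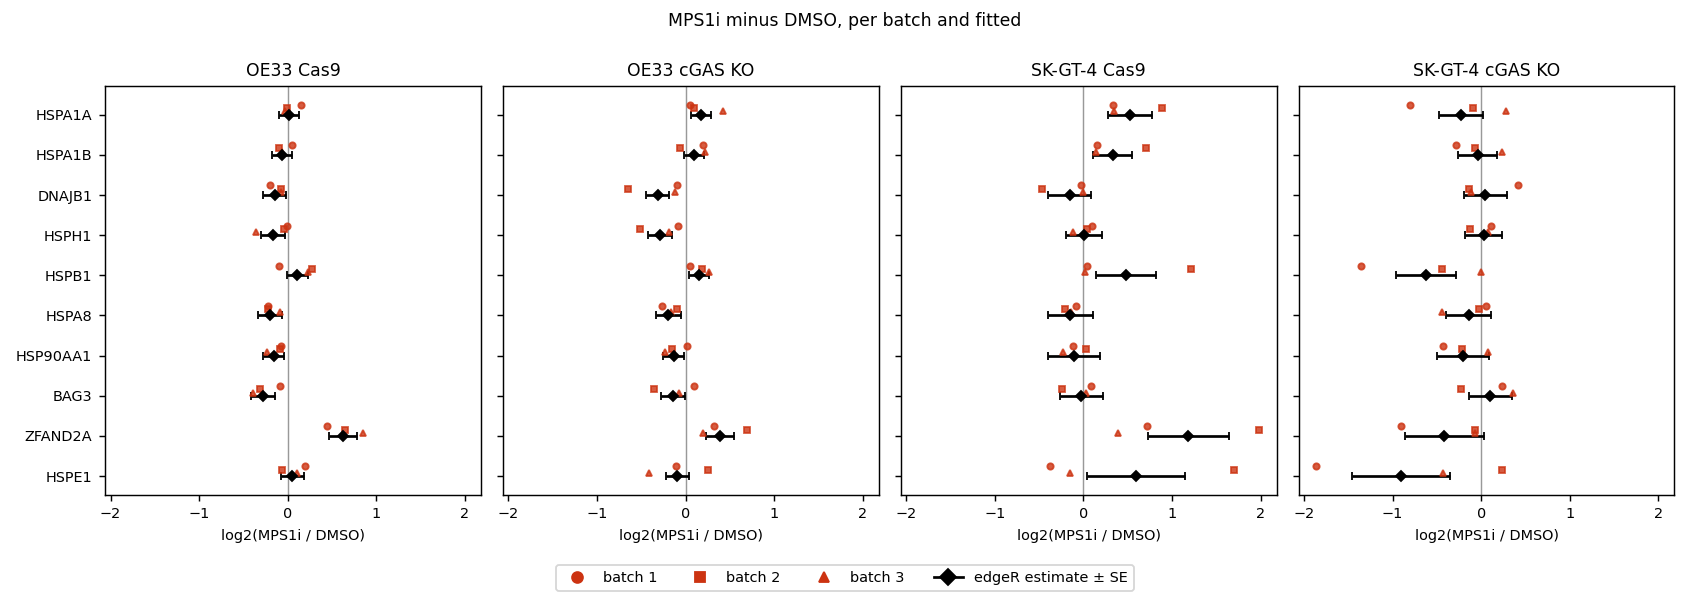
Log2 difference between MPS1i and DMSO of each gene in each batch, by cell line and genotype. Most points lie near 0, and the values furthest from 0 are those of HSPE1, ZFAND2A and HSPB1 in the SK-GT-4 batches that contain the libraries standing apart.

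ZFAND2A was selected on these contrasts, so its values are a description. In OE33 Cas9 cells it had 9.47, 9.23 and 8.98 CPM with DMSO and 12.9, 14.5 and 16.3 CPM with MPS1i. The groups did not overlap, and MPS1i was higher in 3 of 3 batches, by 0.63 (SE 0.16). In OE33 cGAS KO cells it had 10.5, 8.27 and 11.5 CPM with DMSO and 13.2, 13.5 and 13.1 CPM with MPS1i. Again the groups did not overlap, and the difference was 0.39 (SE 0.15). The effect in Cas9 minus that in cGAS KO was 0.24 (SE 0.22) and changed sign between batches, with 0.12, -0.05 and 0.66 in batches 1 to 3.

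In SK-GT-4 Cas9 cells ZFAND2A had 14.7, 12.6 and 11.5 CPM with DMSO and 24.2, 50.1 and 15.1 CPM with MPS1i, a difference of 1.19 (SE 0.46) between groups that did not overlap. In cGAS KO cells it had 52.8, 14.5 and 19.2 CPM with DMSO and 28.1, 13.8 and 18.2 CPM with MPS1i, a difference of -0.42 (SE 0.45). The highest value of each genotype, 50.1 and 52.8 CPM, was in a library that stands apart. The effect in Cas9 minus that in cGAS KO was 1.60 (SE 0.64), and 0.41 without both libraries, when the effects were 0.41 in Cas9 and -0.00 in cGAS KO. The larger effect in Cas9 cells therefore had a size that depended on these libraries, and its sign did not change when both were left out. SK-GT-4 minus OE33 in the effect in Cas9 cells was 0.54 (SE 0.50), and -0.22 without them.

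**Figure D3:**
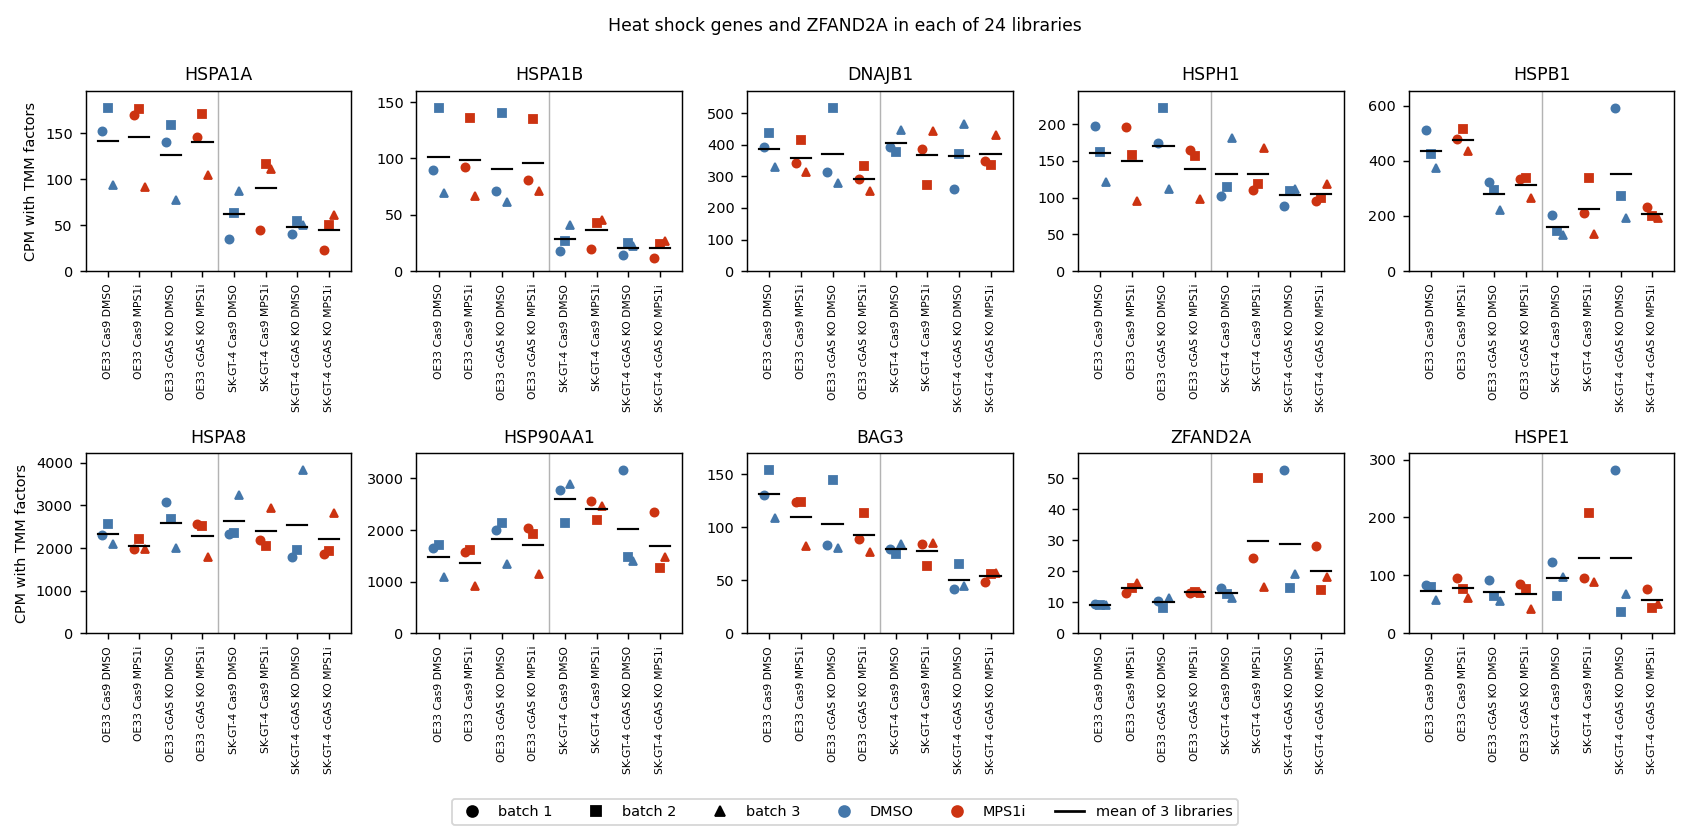
Level of each of the 10 genes in CPM (linear axis) in each library, by cell line, genotype and treatment, with the mean of each group. ZFAND2A in OE33 lies between 8.27 and 11.5 CPM with DMSO and between 12.9 and 16.3 CPM with MPS1i, while HSPA1A in OE33 spans 77.7 to 178 CPM in overlapping groups.

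Other genes of the pathway were counted in lists by role, also chosen with earlier results known. Of 5 regulators of HSF1, 21 further chaperones and co-chaperones, 10 ubiquitin and proteasome stress genes and 8 subunits of the cytosolic chaperonin, 0 were called in any treatment comparison by edgeR. HSF1 itself did not move with MPS1i beyond its error: the log2 difference was -0.06 (SE 0.12) in OE33 Cas9 and 0.02 (SE 0.20) in SK-GT-4 Cas9. In OE33 Cas9 cells, 3 of these 44 genes (6.82%) had an unadjusted p under 0.05 with edgeR, near the 6.95% of all genes. They were HSPB8, a small heat shock protein that works with BAG3, DNAJB4, an HSP40, and the autophagy receptor SQSTM1. HSPB8 was between 4.79 and 9.83 CPM with DMSO and between 11.3 and 17.9 CPM with MPS1i, a difference of 1.06 (SE 0.25, adjusted p 0.33) between groups that did not overlap. In OE33 cGAS KO cells HSPB8 (0.60, SE 0.25) and SQSTM1 also had such a p. In SK-GT-4 HSPB8 had at most 17 counts in any Cas9 library, too few to compare. All 8 chaperonin subunits lay below 0 under MPS1i in OE33 Cas9 and in OE33 cGAS KO, and 0 had an unadjusted p under 0.05. Their medians were -0.14 and -0.11, against 0.005 and 0.003 over all genes. In SK-GT-4, 4 of the 8 lay above 0 in Cas9 (median 0.03) and 0 in cGAS KO (median -0.30). The median over all genes was 0.04 in both, and 0 subunits had such a p.

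The genotypes were then compared at a fixed treatment. In OE33, HSPB1 was the 1 of 9 tested genes that differed between genotypes at the threshold, and it did so with both treatments. With DMSO, 1.47% of all genes were called. HSPB1 had 511, 425 and 372 CPM in Cas9 DMSO replicates 1 to 3 and 322, 295 and 221 CPM in cGAS KO. With MPS1i, where 2.84% of all genes were called, it had 479, 514 and 436 CPM in Cas9 and 334, 336 and 266 CPM in cGAS KO. Every cGAS KO value was below every Cas9 value. The log2 difference was -0.68 (SE 0.12) with DMSO (adjusted p 0.0030) and -0.63 (SE 0.12) with MPS1i (adjusted p 0.0034) by edgeR, lower in 3 of 3 batches in both. The median of all genes on chromosome 7 was 0.02 and -0.02 in these comparisons. Without the batch block the difference was -0.67 and -0.63 and was not called, with adjusted p of 0.23 and 0.21. The DMSO call was lost without batch 1, 2 or 3 (adjusted p 0.025, 0.024 and 0.12) and without Cas9 DMSO replicate 1 (0.035) or 3 (0.038) or cGAS KO DMSO replicate 3 (0.026). The MPS1i call was lost without batch 1, 2 or 3 (adjusted p 0.013, 0.038 and 0.093), without Cas9 MPS1i replicate 2 (0.015) or 3 (0.023), and without cGAS KO MPS1i replicate 1 (0.025), 2 (0.020) or 3 (0.020). The log2 difference stayed between -0.71 and -0.56 in all of these fits.

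HSP90AA1 and BAG3 differed in opposite directions in OE33 without reaching the threshold. HSP90AA1 had a log2 difference of 0.27 (SE 0.12) with DMSO and 0.30 (SE 0.12) with MPS1i, at adjusted p of 0.23 and 0.14 by edgeR. The median of all genes on its chromosome 14 was 0.29 in both comparisons, so it differed by about as much as its chromosome. BAG3 was -0.41 (SE 0.13) with DMSO and -0.27 (SE 0.13) with MPS1i. Without cGAS KO DMSO replicate 2, the library with 15.6 CPM of CGAS, BAG3 had -0.57 with DMSO and was called (adjusted p 0.0090). In that fit 4.77% of all genes were called with DMSO. Over all 10 genes the median was -0.12 with DMSO and -0.12 with MPS1i, against -0.01 and -0.02 over all genes. HSF1 ranged from 195 to 223 CPM over the OE33 Cas9 libraries and from 142 to 180 CPM over the knockouts, without overlap. The log2 difference of HSF1 was -0.42 (SE 0.12, adjusted p 0.051) with DMSO and -0.48 (SE 0.12, adjusted p 0.018) with MPS1i, neither of which passed the threshold in edgeR. No median of the genes on its chromosome was taken for HSF1. A shift of its chromosome or region between the clones therefore cannot be told apart from a difference of HSF1 alone, and was not tested.

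In SK-GT-4, 0 of the 9 tested genes were called between genotypes with either treatment, where 1.76% of all genes were called with DMSO and 1.41% with MPS1i. With DMSO, 1 gene was higher and 1 lower in cGAS KO at an unadjusted p under 0.05 by edgeR, where 17.5% of all genes had such a p. With MPS1i, 4 of the 9 were lower at that p, where 18.4% of all genes had it. HSPA1A had 44.4, 116 and 111 CPM in Cas9 MPS1i and 23.2, 50.6 and 60.8 CPM in cGAS KO MPS1i, lower in 3 of 3 batches by a log2 difference of -1.01 (SE 0.25, adjusted p 0.048). HSPA1B had 19.7, 43.1 and 45.5 CPM in Cas9 MPS1i and 11.7, 23.9 and 26.5 CPM in cGAS KO MPS1i, also lower in each batch, by -0.80 (SE 0.22, adjusted p 0.065). The sum of these copies was 127 ± 54.2 CPM in Cas9 MPS1i and 65.6 ± 27.3 CPM in cGAS KO MPS1i (SD, n = 3). Batch 1 was lowest in both genotypes and the groups overlapped, and the median of all genes on chromosome 6 was -0.10. DESeq2 called both, at adjusted p of 0.0037 and 0.0029, where it called 6.25% of all genes. HSPA1A was also called by edgeR without cGAS KO DMSO replicate 1 alone (adjusted p 0.0082), where 3.45% of all genes were called. Without both libraries that stand apart, edgeR called 11.6% of all genes and 3 of the 9 genes with MPS1i: HSPA1A (-0.92, adjusted p 1.8e-05), HSPA1B (-0.75, adjusted p 0.0013) and BAG3 (-0.73, adjusted p 0.00098).

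BAG3 was lower in cGAS KO than in Cas9 SK-GT-4 cells in every batch and with both treatments. With DMSO it had 79.4, 75.1 and 83.8 CPM in Cas9 and 41.4, 65.7 and 44.6 CPM in cGAS KO. With MPS1i it had 84.5, 63.4 and 85.5 CPM in Cas9 and 48.6, 56.2 and 56.9 CPM in cGAS KO. The groups did not overlap with either treatment, and the differences were -0.67 (SE 0.24, adjusted p 0.17) and -0.54 (SE 0.24, adjusted p 0.26) by edgeR, not called. With DMSO the median of all genes on chromosome 10 was -0.39.

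HSPB1 and ZFAND2A, both on chromosome 7, had higher values in the knockout than in Cas9 cells of SK-GT-4 with DMSO in every batch, by 1.04 (SE 0.34, adjusted p 0.12) for HSPB1 and 1.02 (SE 0.46) for ZFAND2A, which was not tested since its selection used these groups. The median of all genes on chromosome 7 was 0.48 in that comparison and 0.41 with MPS1i. With DMSO the log2 difference of HSPB1 between genotypes was thus below 0 in OE33 and above 0 in SK-GT-4, a contrast between lines that was not tested. Without both libraries, edgeR called 13.3% of all genes with DMSO and 2 of the 9: HSPB1 (0.68, adjusted p 0.0027) and HSPE1 (-0.66, adjusted p 0.0035), while ZFAND2A had 0.56. HSPE1 had 0.17 (SE 0.55) with all libraries, so its sign turned on cGAS KO DMSO replicate 1, with 283 CPM against 37.6 and 68.1 CPM in the other replicates.

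**Figure D4:**
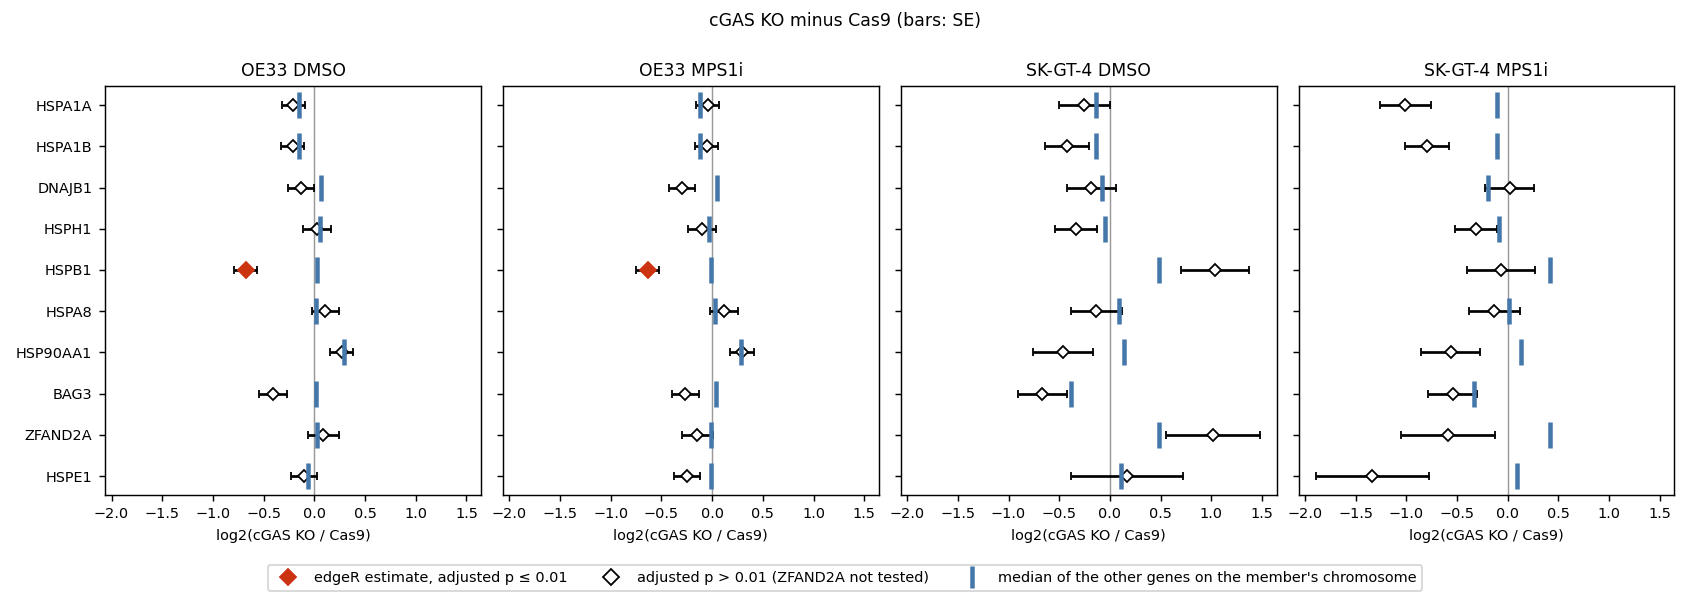
Log2 difference between cGAS KO and Cas9 cells of each gene, with bars of 1 SE, beside the median of all genes on its chromosome, by cell line and treatment. HSPB1 in OE33 lies at -0.68 and -0.63 where its chromosome lies at 0.02 and -0.02, and HSP90AA1 in OE33 lies at its chromosome's 0.29.

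Between genotypes, 0 genes of the other pathway lists were called in either line and with either treatment by edgeR. In SK-GT-4 with DMSO, HSF2, a relative of HSF1, had -0.98 (adjusted p 0.023) and SIRT1, a deacetylase that acts on HSF1, had -0.96 (adjusted p 0.024). With MPS1i, CHORDC1, a co-chaperone of HSP90, had -1.24 (adjusted p 0.028), and 19 of 21 further chaperones lay below 0, with a median of -0.51. An unadjusted p under 0.05 was found for 7 of them, and for 10 of the 44 genes of all lists (22.7%), where 18.4% of all genes had one. The 10 genes described here had a median of -0.55 in that comparison, 9 of them below 0, against -0.03 over all genes. This is a description, as it includes ZFAND2A, which was selected on these libraries, and both near-identical copies HSPA1A and HSPA1B. Without ZFAND2A the median was -0.54. Without both libraries that stand apart, HSPB1 had 0.31 and ZFAND2A had 0.15, while the other members were below 0.

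HSPA1B and HSPB1 were lower in SK-GT-4 than in OE33 Cas9 cells. In DMSO-treated Cas9 cells, 22% of 25181 genes were called between SK-GT-4 and OE33 and the median of all genes was 0.14. Of the 9 tested genes, 2 were called, both lower in SK-GT-4. HSPA1B had 17.7, 26.4 and 41.1 CPM in SK-GT-4 against 89.6, 145 and 69.3 CPM in OE33, a log2 difference of -1.84 (SE 0.42, adjusted p 0.0014). The split of reads between HSPA1A and HSPA1B is uncertain, and their sum was 90.1 ± 37.8 CPM in SK-GT-4 and 242 ± 80.2 CPM in OE33 (SD, n = 3). HSPB1 had 205, 144 and 131 CPM against 511, 425 and 372 CPM, a difference of -1.45 (SE 0.34, adjusted p 0.0017). Neither pair of groups overlapped, but neither did those of HSPA1A, BAG3 and HSP90AA1, which were not called, or of ZFAND2A. The call of HSPA1B was lost without batch 2 (adjusted p 0.034), OE33 Cas9 DMSO replicate 2 (0.013) or SK-GT-4 Cas9 DMSO replicate 1 (0.014). That of HSPB1 was lost without batch 2 (adjusted p 0.029) or 3 (0.013), or without SK-GT-4 Cas9 DMSO replicate 2 (0.012) or 3 (0.012). HSPA1A (-1.19, adjusted p 0.025) and BAG3 (-0.72, adjusted p 0.032) lay in the same direction without being called (HSPA1A was called when no filter on low counts was used, at adjusted p 0.00057), and HSP90AA1 was 0.81 (adjusted p 0.079), all in edgeR. A share of 2 in 9 was near the 22% of all genes.

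In DMSO-treated cGAS KO cells, 21.6% of all genes were called, the median of all genes was 0.15, and 2 of the 9 tested genes were called. HSPA1B was lower in SK-GT-4 by a log2 difference of -2.14 (SE 0.43, adjusted p 0.00037), at 14.3, 25.1 and 22.5 CPM against 71.0, 140 and 61.3 CPM. Its sum with HSPA1A was 68.9 ± 12.5 CPM in SK-GT-4 and 217 ± 80.3 CPM in OE33 (SD, n = 3). BAG3 was lower, at -1.02 (SE 0.26, adjusted p 0.0031). ZFAND2A, whose selection used these knockout libraries and which was not tested, had a difference of 1.51 (SE 0.40), and its values of 52.8, 14.5 and 19.2 CPM lay above all 3 OE33 values. Without both libraries, edgeR called HSPA1B only (-1.90, adjusted p 0.0028), while BAG3 had -0.87 (adjusted p 0.0104) and ZFAND2A had 0.77. The call of BAG3 was lost without batch 1, 2 or 3 (adjusted p 0.035, 0.015 and 0.031), OE33 cGAS KO DMSO replicate 2 (0.046), or replicate 1 (0.015) or 3 (0.016) of SK-GT-4 cGAS KO with DMSO. HSPA1A had -1.38 (SE 0.40), with an adjusted p of 0.0103. It was called with the batch number shared by the lines as a block (-1.39, adjusted p 0.0052), by DESeq2 (0.0061) and when no filter on low counts was used (3.7e-05). HSPB1, called in Cas9 cells, had 0.33 (SE 0.33, adjusted p 0.46) here, and -0.24 without both libraries; the difference between genotypes of the line difference was not tested.

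Among the further chaperones, 1 was higher and 4 were lower in SK-GT-4 of 21 in Cas9 cells, and 5 were lower in cGAS KO cells, by edgeR, near the 22% and 21.6% of all genes called. HSPA6, a strictly inducible HSP70, had 28 to 50 counts in OE33 Cas9 DMSO libraries and 2 to 4 in SK-GT-4. HSPA4L, an HSP110, was lower by log2 differences of -1.20 and -1.68 in Cas9 and cGAS KO cells, and FKBP4, a co-chaperone of HSP90, of -1.11 and -1.29. Of the ubiquitin and proteasome genes, UBB, which encodes a polyubiquitin precursor, was higher (1.48 and 1.29), while SQSTM1 (-1.07 and -1.60) and ZFAND5 (-1.35 and -1.21), a relative of ZFAND2A, were lower.

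Levels were also compared across libraries, as deviations of log2 CPM from the mean of the same line and genotype. These correlations are descriptions, since libraries share batches, clones and treatments. In OE33, all 36 pairs of the 9 heat shock genes correlated positively over 12 libraries, with a median r of 0.71 (0.31 to 0.94), and batch 3 was low for most of them. ZFAND2A correlated negatively with 8 of these 9 genes in OE33 (median r -0.36), the exception being HSPB1 (0.24). In SK-GT-4, 18 of the 36 pairs were positive and 18 negative, with a median r of -0.02, and 19 were positive without both libraries that stand apart. HSPA1A and HSPA1B, near-identical copies, had an r of 0.97 in SK-GT-4 and 0.91 over all 24 libraries.

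Over all 24 libraries ZFAND2A was most like HSPB1 (r = 0.77) and HSPE1 (r = 0.72), and least like DNAJB1 (r = -0.65) and BAG3 (r = -0.56). Of 9141 genes, 4.36% had a higher r with ZFAND2A than HSPB1 had. Over the 22 libraries left when both that stand apart were omitted, the r of HSPB1 with HSPE1 was 0.40 in place of 0.82, and that of ZFAND2A was 0.34 with HSPB1, 0.29 with HSPE1, -0.36 with DNAJB1 and -0.45 with BAG3. The genes most like ZFAND2A were SNHG5 (r = 0.94), RAB9A (0.93), CCNB1IP1 (0.93), SNHG8 (0.92) and DDX19B (0.92), and their r over 22 libraries was 0.86, 0.80, 0.89, 0.78 and 0.75. The genes most like the mean of the 10 were LUC7L, CRNKL1, JMJD6, DNAJA1 and CDC37L1, with r between 0.88 and 0.90. Of these, DNAJA1 is an HSP40 and CDC37L1 is a relative of the HSP90 co-chaperone CDC37.

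**Figure D5:**
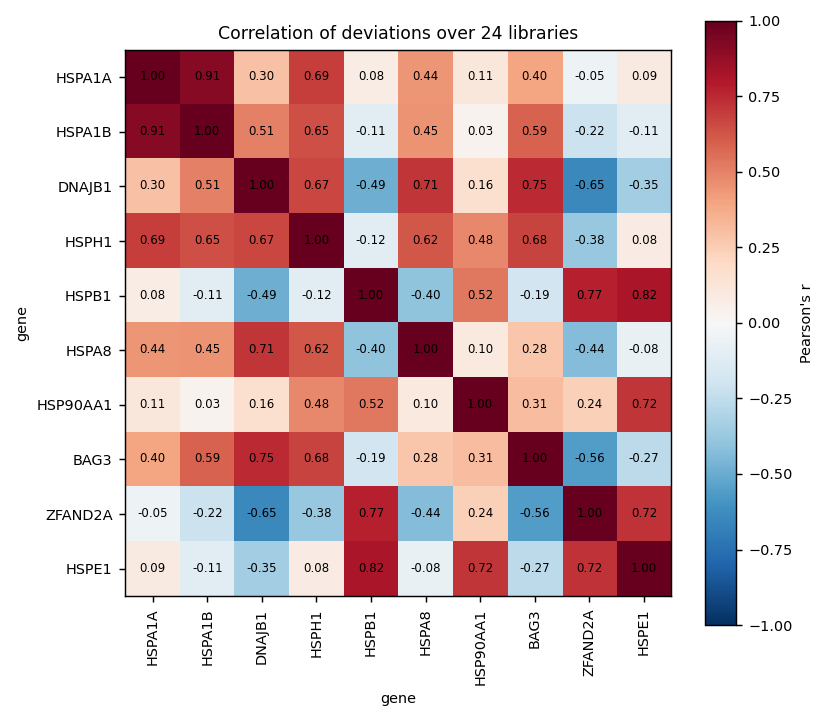
Pearson's r between each pair of the 10 genes over 24 libraries, from log2 CPM after subtracting the mean of the same cell line and genotype. ZFAND2A, HSPB1 and HSPE1 form a block with r of 0.72 to 0.82, which was 0.29 to 0.40 without both SK-GT-4 libraries that stand apart, and ZFAND2A is negative with HSPA1A, HSPA1B, DNAJB1, HSPH1, HSPA8 and BAG3.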

How the data were processed

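Poly(A) RNA was sequenced by the authors as read pairs of 150 bases. HISAT2 2.0.5 was their aligner, with GRCh38 as the genome, and featureCounts 1.5.0 gave a count for each gene. The deposited values are raw counts for 58735 genes in 24 libraries, and 0 columns of per-sample values lacked a sample. The annotation release, strand setting and treatment of reads with several matches are not given in the sources used here. No library pair was identical (0 of 276).

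The study's filter was applied (a total count of at least 5, nonzero in at least 4 libraries). Each line's 12 libraries were fitted in R 4.3.3 with edgeR 4.0.16 (TMM factors, a term per group, batch as a block) and tested by its quasi-likelihood test with Benjamini-Hochberg adjustment over all genes, with a threshold of 0.01 on the adjusted p. Levels of the lines were compared in a fit of 24 libraries without a block, and the line difference of the MPS1i effect with a block per line and batch. The labels give the batch, which pairs libraries. Deviations from group means correlated between libraries that shared a batch, with a median r for batches 1 to 3 of 0.176, 0.279 and 0.393 (OE33) or 0.265, 0.162 and 0.190 (SK-GT-4). edgeR estimated a biological coefficient of variation of 15.0% for OE33 and of 34.0% for SK-GT-4. The scripts were tested on simulated data. Overlap of groups was described for named genes only, and the share of all genes without overlap was not counted. Values in CPM use TMM factors, log2 CPM a prior count of 2, and counting error is a small part of the spread at 15561268 to 25284177 counts per library.

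The members and lists were chosen with earlier results of these data known. ZFAND2A was left out of every test, in genotype and line comparisons as well, because its selection used these libraries. Named genes were all members, pathway genes with an adjusted p of at most 0.01 or among the 3 smallest p of a list, the 5 genes most like ZFAND2A and the 5 most like the members' mean (mean CPM of at least 10), and CGAS; 1 pathway gene that meets this rule is not reported here. Alternatives were DESeq2 1.42.0, other normalizations and filters, other blocks, and leaving out each library and batch.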

Additional observations from a re-analysis of the deposited data

Results flagged for a closer look

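Of 90 pairs of effects of the 10 genes, 6 moved in opposite directions in all 3 batches of the groups compared. These pairs were found by sign alone. The interaction of HSPB1 in SK-GT-4 was tested in the report, and the other differences were not tested.

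In SK-GT-4 the effect of MPS1i on HSPB1 differed between Cas9 and cGAS KO cells by 1.11, from 0.48 in Cas9 and -0.62 in cGAS KO. The effect on ZFAND2A, selected on this contrast, differed by 1.60, from 1.19 and -0.42. In batch 3 the HSPB1 effects were 0.02 and -0.00, so the opposite signs there rest on differences close to 0. Without both libraries that stand apart these differences were 0.38 and 0.41, and the length profile of the libraries is given in the report; its part was not tested.

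In cGAS KO cells the effect of MPS1i in SK-GT-4 minus that in OE33 was -0.78 for HSPB1, from -0.62 and 0.15, and -0.80 for ZFAND2A, from -0.42 and 0.39. Without both libraries the SK-GT-4 effects were -0.30 and -0.00. Between genotypes with DMSO, the cGAS KO minus Cas9 difference of HSPB1 was 1.72 larger in SK-GT-4 than in OE33, from 1.04 and -0.68, and the SK-GT-4 difference was 0.68 without both libraries. With MPS1i that of HSP90AA1 was -0.86 in the same direction of subtraction, from -0.56 in SK-GT-4 and 0.30 in OE33. The median of all genes on chromosome 14, which carries HSP90AA1, was 0.29 in OE33. Groups had 3 libraries each, so no single library was tested for lying apart from its group.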

How the results depend on the processing

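The labels' batch pairs libraries, and without the replicate block 0 genes in place of 1 were called between genotypes in OE33 with DMSO and 0 with MPS1i; the block changed no other count of members called by over 1.5 times. DESeq2 called 2 genes between genotypes in SK-GT-4 with MPS1i, where edgeR called 0. The shares of all genes called there were 6.25% with DESeq2 and 1.41% with edgeR. Leaving out both SK-GT-4 libraries that stand apart, chosen after seeing the data, gave 2 calls with DMSO and 3 with MPS1i between genotypes in SK-GT-4, and 1 call between lines in cGAS KO cells in place of 2. Leaving out single libraries or batches gave 0 to 2 and 0 to 1 calls between genotypes in OE33 (DMSO, MPS1i), 0 to 1 in SK-GT-4 with MPS1i, and 0 to 2 and 1 to 3 between lines (Cas9, cGAS KO). The members' median then ranged from -0.13 to -0.036 for MPS1i in OE33 Cas9, -0.14 to -0.021 in OE33 cGAS KO, -0.060 to 0.054 for their difference, -0.19 to -0.065 between genotypes in OE33 with DMSO, and -0.52 to 0.22 between lines in cGAS KO cells. No call reversed under the alternatives run. With 3 libraries per group, the precision is limited by the spread between libraries, which was larger in SK-GT-4 (coefficient of variation 34.0%) than in OE33 (15.0%).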
